A study of Arabidopsis thaliana with 210 samples.

Results

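Mitochondrion-encoded genes were taken as all rows of the count table whose identifier starts with ATMG, the prefix that Arabidopsis uses for the mitochondrial genome. This gave 146 of the 29696 genes of the table, and all 146 are described across all 210 wells. The study measured RNA in nuclei from shoot apices of Arabidopsis thaliana seedlings of the ecotype Col-0, collected 7 days after germination, and the labels call every well stem cells. Nuclei were sorted into wells as 1 nucleus, as a pool labelled as 50 nuclei (a bulk well), or as no nucleus. The names of the bulk columns hold the number 10 where the labels say 50 nuclei, and the difference could not be settled.

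Smart-seq2 libraries were made from 93 nuclei labelled p1 and 93 labelled p2, and Smart-seq3 libraries from 8 labelled p1 and 12 labelled p2. The p1 bulk well, the p2 bulk well and 2 p2 wells without a nucleus were made with Smart-seq2. All wells share the ecotype, the age and the tissue. The meaning of p1 and p2 is not given in the sources used here, and the labels name no transgene, no sorting mark, no plant and no pool. With no such source of replication, a group counts as 1 sample. Groups were compared without a test, and every interval covers counting error only. In a bulk well, fewer nuclei of a type and less RNA per nucleus cannot be told apart.

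Depth differed widely between wells. The lowest, median and highest counts on genes were 1362, 1310185 and 8102382 in p1 Smart-seq2 nuclei, and 153, 375146 and 1236901 in p2 Smart-seq2 nuclei. They were 34106, 55305 and 337249 in p1 Smart-seq3 nuclei, and 92940, 605497 and 747658 in p2 Smart-seq3 nuclei. The bulk wells held 1945890 counts in p1 and 1253317 counts in p2, and the wells without a nucleus held 7953 and 8676 counts. Of the defining markers, CLV3 (stem cells) had a count in 21 of 93 p1 and 6 of 93 p2 Smart-seq2 nuclei, and WUS (organising centre) in 2 and 3. Most nuclei thus had no count of CLV3, the marker that defines the labelled cell type. RBCS1A, a gene of photosynthetic leaf tissue, had a count in 93 of 93 p1 and 91 of 93 p2 Smart-seq2 nuclei. The 8 markers read also hold STM (meristem), ATML1 and PDF1 (epidermal layer) and further genes of leaf tissue, which are not given singly here. Detection over the 8 ran from 2.15% to 100% of p1 and from 3.23% to 97.8% of p2 Smart-seq2 nuclei. CLV3, WUS and RBCS1A include the lowest and the highest of these, and do not stand for the other markers. Over all 8, the median detection was 74.7% of p1 and 55.4% of p2 Smart-seq2 nuclei.

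Plant mitochondria keep a genome of their own, which encodes some of the subunits of respiratory complexes I, III and IV and of the ATP synthase, proteins for cytochrome c maturation, some ribosomal proteins, and ribosomal and transfer RNAs. The remaining subunits come from nuclear genes and are imported. Mitochondrial RNA is made inside the organelle, outside the nucleus, and in plants its poly(A) tails are short-lived marks of decay, while both Smart-seq protocols start cDNA from poly(A) tails. Chromosome 2 of Arabidopsis carries a large insertion of mitochondrial DNA, so that nearly the same sequence stands in the nucleus and in the organelle.

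The insertion bears on some of the counts given here, because a read can fit both genomes. Among 28929 nuclear genes with a sequence in the RefSeq assembly TAIR10.1, 116 matched its mitochondrial genome at 95% identity or more over at least 80% of their length. Of these, 114 lay on chromosome 2, and 112 had identifiers from AT2G07600 to AT2G07999, which lie in chr2:3239657-3507323. The longest match was identical in 69 of the 116 genes, and the lowest identity was 99.0%. The stretches printed next show how little separates the copies of 3 rows that shared counts with a nuclear gene, with the differing base in capitals. The last pair, without a difference, belongs to ATMG00950, the row with the lowest ratio of p1 to p2.
AT2G07717: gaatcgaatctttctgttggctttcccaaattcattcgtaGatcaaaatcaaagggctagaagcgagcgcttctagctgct
nad4: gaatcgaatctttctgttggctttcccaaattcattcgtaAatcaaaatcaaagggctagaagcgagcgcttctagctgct
AT2G07698: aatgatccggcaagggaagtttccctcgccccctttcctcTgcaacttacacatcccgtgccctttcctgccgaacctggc
atp1: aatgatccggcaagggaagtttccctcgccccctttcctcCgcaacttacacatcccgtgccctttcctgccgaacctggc
AT2G07783: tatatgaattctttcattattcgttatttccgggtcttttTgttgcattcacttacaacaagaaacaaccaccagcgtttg
ccmFN1: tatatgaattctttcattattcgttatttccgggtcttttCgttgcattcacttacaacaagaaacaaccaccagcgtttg
AT2G07746: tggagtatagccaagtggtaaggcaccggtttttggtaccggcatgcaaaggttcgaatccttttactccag
trnQ: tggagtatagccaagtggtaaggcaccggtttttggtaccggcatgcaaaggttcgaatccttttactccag

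Sequences and positions are from RefSeq TAIR10.1, the submitters' processing notes name TAIR10, and whether the mitochondrial sequence is the same in both was not checked. The AT2G07717 stretch is chr2:3420852-3420932 on the plus strand, in an annotated pseudogene and in no annotated exon. Its counterpart lies at bases 212789 to 212869 on the minus strand of the mitochondrial genome, inside nad4 (a complex I subunit) and outside its annotated exons. They differ by A41G, where the first letter is the mitochondrial base, the number counts from 1 at the left end of the stretch, and the last letter is the base on chromosome 2. The whole match of 6960 bases held 6 differences.

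The AT2G07698 stretch is chr2:3361888-3361968, in a coding exon, and differs by C41T, the 1 difference in 2665 matching bases. Its counterpart, bases 69158 to 69238 on the minus strand, belongs to the match that contains atp1 (a subunit of the ATP synthase) and lies in no annotated feature. The AT2G07783 stretch, chr2:3297903-3297983, lies in an exon of a pseudogene and differs by C41T from bases 316026 to 316106 of the mitochondrial plus strand, in the coding sequence of ccmFN1 (cytochrome c maturation), again the 1 difference in 1504 bases. The nuclear transfer RNA gene AT2G07746, chr2:3276440-3276511, is identical over its 72 bases to trnQ (glutamine transfer RNA) at bases 294477 to 294548.

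Names for mitochondrial rows were limited. The reference annotation holds no ATMG identifier as a locus tag, and 45 of the 146 rows were named only through notes on chromosome 2 genes, 21 of them as unknown protein. A further 8 rows appeared in a note on a pseudogene, and 93 had no entry, among them the rows with the most counts, which are given by identifier.

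The 146 rows held 4308522 counts over all wells, and 2 of them held 88.5% of these counts. ATMG01390 had 2346642 counts and ATMG00020 had 1467469. Counts were not divided by gene length, so shares and levels here are of counts and do not rank genes by molecules. The rows ranked from 3 to 10 held 8.81%, so the first 10 rows together held 97.3%. The other end was sparse: 14 rows had no count in any well, 31 had between 1 and 49 counts in all, and 40 reached 1000. A count was present for 110 rows in p1 Smart-seq2 nuclei, 115 in p2 Smart-seq2 nuclei, 46 in p1 Smart-seq3 nuclei, 43 in p2 Smart-seq3 nuclei, 59 in the p1 bulk well, 45 in the p2 bulk well and 5 in the wells without a nucleus. All 6 groups with a nucleus shared 15 rows, and 98 rows had a count in both Smart-seq2 groups.

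Most mitochondrial rows were seen in few nuclei. In p1 Smart-seq2 nuclei 10 rows had a count in at least 50% of nuclei, and in p2 Smart-seq2 nuclei 6 rows did. Another 35 rows in p1 and 23 rows in p2 reached 10% of nuclei, 65 and 86 rows stayed under 10%, and 36 and 31 rows had no count. Per Smart-seq2 nucleus, a median of 19 rows had a count in p1 and 11 in p2, and per Smart-seq3 nucleus 14 rows did in p1 and 8 in p2. With every well thinned to 4200 counts, which left 82 p1 and 83 p2 Smart-seq2 nuclei and all Smart-seq3 nuclei, these medians were 8, 5, 4 and 2.5.

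The mitochondrial share of a well's counts on genes was low in nuclei and high in wells without a nucleus. The median share was 2.51% in p1 Smart-seq2 nuclei (lowest 1.05%, highest 8.19%) and 1.54% in p2 Smart-seq2 nuclei (lowest 0.190%, highest 35.4%). The median was 0.289% in p1 Smart-seq3 nuclei (0.144% to 1.74%) and 0.235% in p2 Smart-seq3 nuclei (0.0131% to 1.04%). The bulk wells stood at 2.04% in p1 and 0.930% in p2. The wells without a nucleus stood at 26.9% and 32%. There, ATMG00020 and ATMG01390 held 99.9% of mitochondrial counts, and ATMG01390 shared reads with plastid rows, as given further on. Those plastid rows, ATCG00920 and ATCG01210, held 7.00% and 9.21% of the summed counts on genes in these wells. How much of the share in these wells came from mitochondrial RNA was not tested. Every Smart-seq2 group overlapped the Smart-seq3 group of its p number, and 1 p2 Smart-seq2 nucleus lay above both wells without a nucleus.

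**Figure D1:**
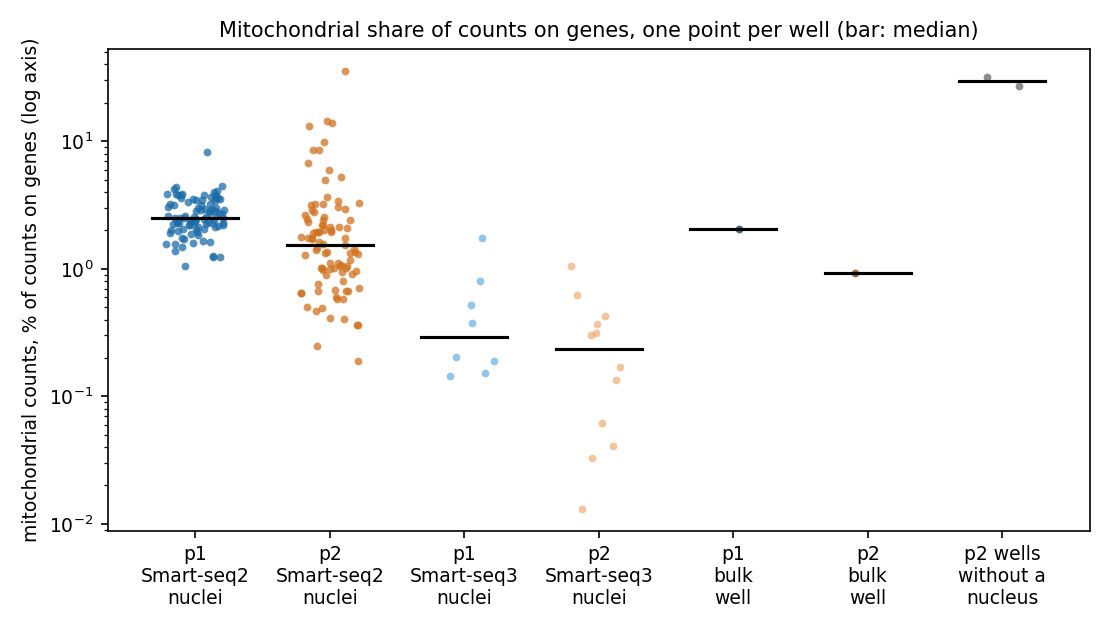
Mitochondrial counts as a percentage of counts on genes (log axis), with 1 point per well and a bar at each group's median. The Smart-seq2 medians are 2.51% in p1 and 1.54% in p2, the Smart-seq3 medians are under 0.3%, and the wells without a nucleus are at 26.9% and 32%.

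Depth touched this share in p2. The 81 p2 Smart-seq2 nuclei with at least 50000 counts had a median of 1.35%, and the 11 nuclei with no more than 8676 counts, the higher total of a well without a nucleus, had a median of 8.61% (0.803% to 35.4%). In p1 the corresponding medians were 2.49% for 57 deep nuclei and 2.68% for 28 shallow ones (1.59% to 3.85%). Shallow p1 nuclei therefore sat at the level of deep p1 nuclei, and shallow p2 nuclei mostly sat above deep p2 nuclei. The plastid share, the other organelle measure, had Smart-seq2 medians of 12% in p1 and 18.2% in p2 and Smart-seq3 medians of 4.51% in p1 and 10.5% in p2, and was 47.2% and 50.4% in the wells without a nucleus. Across nuclei, the mitochondrial and plastid shares had a Spearman rho of 0.39 in p1 Smart-seq2 and 0.29 in p2 Smart-seq2 (93 nuclei each, which share a library preparation and a depth range).

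The number of mitochondrial counts followed depth closely in p1 and loosely in p2. Between mitochondrial counts and counts on genes, Spearman's rho was 0.94 over 93 p1 and 0.44 over 93 p2 Smart-seq2 nuclei. Among nuclei with at least 50000 counts it was 0.77 in p1 (57 nuclei) and 0.16 in p2 (81 nuclei). Plastid counts had a rho of 0.90 in p1 and 0.70 in p2 with depth in the same deep nuclei. Among deep p2 nuclei, then, the order by mitochondrial counts followed depth little and the order by plastid counts followed it more.

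The wells without a nucleus show what the assay returned with no nucleus sorted. They held 2143 and 2776 mitochondrial counts, against a median of 4712 in the 93 p2 Smart-seq2 nuclei and 5296 in the 81 deep ones (1566 to 43105). Of the deep p2 nuclei, 10 had no more mitochondrial counts than the higher well without a nucleus. ATMG00020 had 1475 and 1332 counts in the wells without a nucleus, against a median of 2310 in deep p2 nuclei. ATMG01390 had 666 and 1443 counts, against a median of 2366. The mitochondrial counts of these wells lay inside the range of nuclei that were far deeper in total.

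The make-up of the counts differed, however. The other 144 rows held 2 and 1 counts in the wells without a nucleus, which is 0.0610% of their mitochondrial counts (exact 95% binomial interval 0.0126% to 0.178%). In the summed p2 Smart-seq2 nuclei these 144 rows held 87870 counts, or 14.2% of mitochondrial counts (14.2% to 14.3%), and a deep p2 nucleus had a median of 646 counts on them. The 11 shallow p2 nuclei stood between, at 2.20% (1.72% to 2.76%). The 28 shallow p1 nuclei stood at 9.69% (8.78% to 10.7%), against 10.9% in all p1 Smart-seq2 nuclei. The 3 counts in wells without a nucleus fell on ATMG00950, ATMG01280 and ATMG01360, 1 each.

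Row by row, the summed p2 Smart-seq2 nuclei were set against the summed wells without a nucleus as CPM (counts scaled to a fixed total of counts on genes). A difference beyond 4-fold was counted among genes with at least 50 counts over both, with a group at 0 entered as 3 counts. Of 18384 genes, 1.78% lay beyond 4-fold, 0.778% higher and 1.01% lower in nuclei. Of 70 mitochondrial rows, 6 did, 2 higher and 4 lower, and 63 had no ratio because 3 counts in so shallow a control already exceeded their level in nuclei. ATMG00020 was at 6564 CPM in nuclei and 168801 CPM in wells without a nucleus, a log2 ratio of -4.68 (-4.74 to -4.63), and ATMG01390 was at 7001 CPM in nuclei and 126827 CPM in wells without a nucleus (-4.18, interval -4.24 to -4.12). The other lower rows, ATMG00950 and ATMG01280, each had 1 count in the wells without a nucleus. Their intervals, -5.95 to 1.85 and -4.65 to 3.14, held 0. Scaled to total mitochondrial counts instead, ATMG01390 turned to 0.046 and the called rows were 9 higher and 0 lower. Without either of the wells without a nucleus 3 rows were called, 0 higher and 3 lower. ATMG00030, at 786 CPM in nuclei and 0 counts in the wells without a nucleus, was at least 4.36-fold higher in nuclei. ATMG01360 had 13557 counts in nuclei and 1 in the wells without a nucleus, a log2 ratio of 2.53 with an interval from 0.05 to 7.83.

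ATMG01390 and ATMG00020 led the mitochondrial counts of Smart-seq2 nuclei in p1 and in p2, in different proportions. ATMG01390 held 56.5% of mitochondrial counts in p1 Smart-seq2 nuclei, 44.3% in p2 Smart-seq2 nuclei, 1.53% in p1 Smart-seq3 nuclei, 5.66% in p2 Smart-seq3 nuclei, 52.7% in the p1 bulk well, 46% in the p2 bulk well and 42.9% in the wells without a nucleus. ATMG00020 held 32.7%, 41.5%, 52.2%, 42.4%, 38.5%, 35.2% and 57.1% in the same order. In Smart-seq3 nuclei, then, ATMG00020 alone led, and the rows besides these 2 held 46.2% of mitochondrial counts in p1 and 51.9% in p2.

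**Figure D2:**
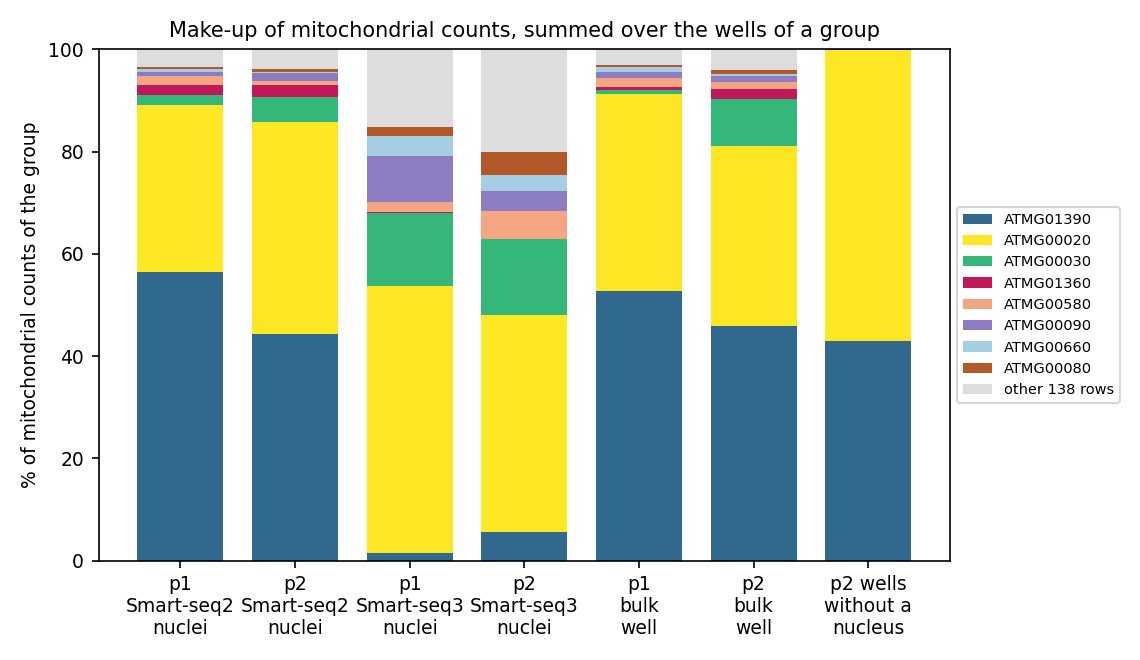
Share of each group's summed mitochondrial counts held by the 8 rows that are named in the key and by all other rows. ATMG01390 takes 56.5% in p1 and 44.3% in p2 Smart-seq2 nuclei, and 1.53% and 5.66% in Smart-seq3 nuclei.

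Well by well, ATMG01390 took a median of 64.4% of the counts of these 2 rows in p1 Smart-seq2 nuclei (5.42% to 86.4%) and 49.6% in p2 Smart-seq2 nuclei (0 to 75%). Smart-seq3 medians were 0.650% over p1 nuclei (0 to 95.7%) and 8.53% over p2 nuclei (0 to 47.1%). The bulk wells stood at 57.8% and 56.6%, and the wells without a nucleus at 31.1% and 52%. The ranges of the Smart-seq2 groups overlapped over most of their length. In Smart-seq3, ATMG01390 had 25, 4, 22, 0, 1, 5, 0 and 1 counts in the 8 p1 nuclei and 4, 88, 26, 16, 251, 17, 38, 0, 240, 12, 6 and 2 counts in the 12 p2 nuclei. ATMG00020 had 29, 8, 1, 25, 753, 442, 178 and 550 counts in the same 8 p1 nuclei, and 333, 99, 142, 619, 1723, 65, 180, 51, 510, 1290, 132 and 106 counts in the 12 p2 nuclei. ATMG00020 was above ATMG01390 in all 12 p2 nuclei and in 7 of 8 p1 nuclei. ATMG01390 shared reads with the plastid rows ATCG00920 and ATCG01210, as given further on. From summed p1 Smart-seq2 to p1 Smart-seq3 nuclei ATMG01390 went from 1.53% to 0.00655% of counts on genes. ATCG00920 went from 0.471% to 0.181%, and ATCG01210 from 0.989% to 0.248%. In p2 these rows went from 0.700% to 0.0123%, 0.348% to 0.270% and 0.530% to 0.371%, in this order. Whether reads were divided differently under each protocol was not tested.

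**Figure D3:**
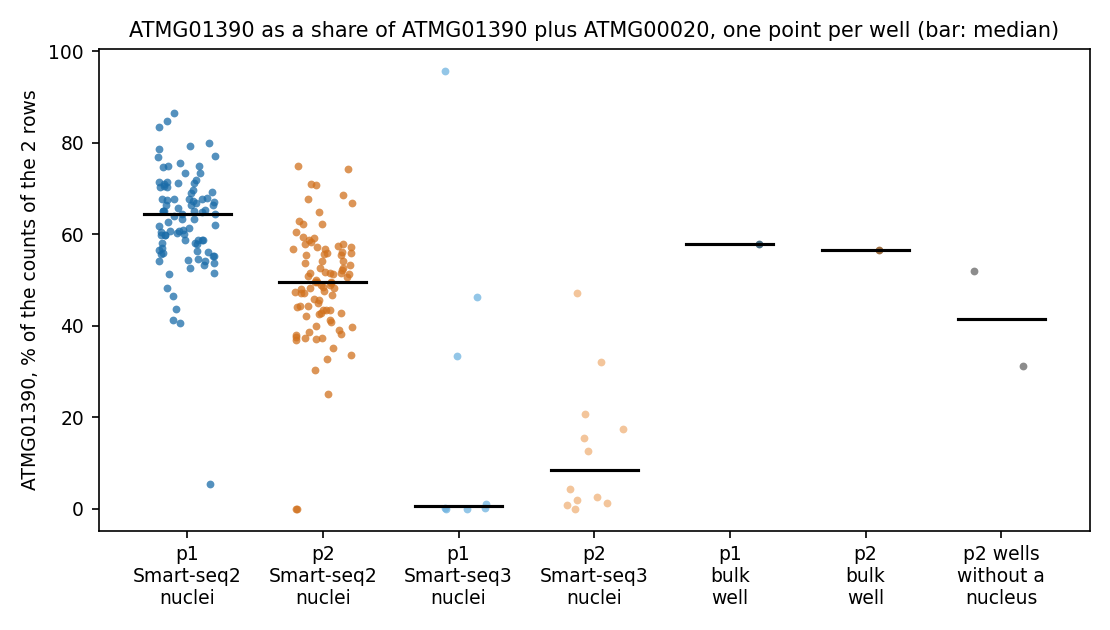
ATMG01390 as a percentage of the summed counts of ATMG01390 and ATMG00020, with 1 point per well and a bar at the median. Medians are 64.4% in p1 and 49.6% in p2 Smart-seq2 nuclei, against 0.650% in p1 and 8.53% in p2 Smart-seq3 nuclei.

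A further 4 rows without a name in the annotation were present in most Smart-seq2 nuclei. ATMG00030 had a count in 96.8% of p1 and 84.9% of p2 Smart-seq2 nuclei, with well medians of 429 CPM (0 to 1522) in p1 and 494 CPM (0 to 5400) in p2. In Smart-seq3 it was found in 5 of 8 p1 and 11 of 12 p2 nuclei. ATMG01360 had a count in 95.7% of p1 and 63.4% of p2 Smart-seq2 nuclei, with medians of 354 CPM (0 to 2545) and 61.1 CPM (0 to 6536), but summed to 9 counts in p1 and 1 count in p2 Smart-seq3 nuclei. ATMG00580 was found in 82.8% of p1 and 66.7% of p2 Smart-seq2 nuclei, and ATMG00090 in 84.9% and 66.7%.

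Of the 20 rows named for a respiratory, cytochrome or ribosomal role, ATMG01190 of the ATP synthase was found in the most Smart-seq2 nuclei. ATMG01190, named ATP synthase subunit 1, had a count in 71% of p1 Smart-seq2 nuclei (exact 95% interval 60.6% to 79.9%) and in 25.8% of p2 Smart-seq2 nuclei (17.3% to 35.9%). Its level was 231 CPM in summed p1 and 67.3 CPM in summed p2 Smart-seq2 nuclei, 165 CPM in the p1 and 67 CPM in the p2 bulk well, and 5.65 CPM in p1 and 13.3 CPM in p2 Smart-seq3 nuclei. These levels leave out the reads given to the nuclear gene AT2G07698, with which ATMG01190 shared reads, as given further on. The subunit 9 rows ATMG01080 and ATMG01090 were found in 18 and 26 of 93 p1 and in 9 and 6 of 93 p2 Smart-seq2 nuclei. ATMG00410 (subunit 6) was found in 8 and 7 nuclei, and ATMG00480 (subunit 8) in 20 and 9. The 5 rows summed to 306 CPM in p1 and 90.6 CPM in p2 Smart-seq2 nuclei.

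Complex I, the entry point for electrons from NADH, was represented by 3 named rows at 73.8 CPM in p1 and 66.1 CPM in p2 Smart-seq2 nuclei. ATMG01320 (NADH dehydrogenase 2B) was found in 58.1% of p1 and 19.4% of p2 Smart-seq2 nuclei, and ATMG00990 (NADH dehydrogenase 3) in 36.6% and 24.7%. ATMG01275 (NADH dehydrogenase 1A) had counts in 2 nuclei of each. These sums hold only rows named in the annotation, with 9874 counts in p1 and 2577 in p2. ATMG00580, which has no name there, shared reads with a nuclear gene matching nad4, a complex I subunit. It had 68006 counts in p1 and 5797 in p2 and is not in the sums. ATMG00513, ATMG00510 and ATMG00285, paired with genes matching nad5, nad7 and nad2, are not in them either. The levels of the named classes therefore do not rank the complexes.

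Rows of the terminal oxidase and of the cytochrome genes were each found in fewer Smart-seq2 nuclei than ATMG01190. ATMG00730 (cytochrome c oxidase subunit 3) was found in 20 of 93 p1 and 14 of 93 p2 Smart-seq2 nuclei. ATMG01280, named for a cytochrome c oxidase subunit II domain, was found in 18 and 8, and 76.7% of its p1 counts lay in 1 nucleus. ATMG00220 (apocytochrome b, of complex III) was found in 13 and 6 nuclei. For cytochrome c maturation, ATMG00180 was found in 21 and 12 nuclei, and ATMG00900 and ATMG00960 each in 3 and 4.

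Ribosomal protein rows summed to 60.3 CPM in p1 and 38.2 CPM in p2 Smart-seq2 nuclei. ATMG00560, named for an OB-fold nucleic acid-binding protein, was found in 41 of 93 p1 and 13 of 93 p2 nuclei. ATMG00290 (S4) was found in 25 and 11, ATMG00980 (S12) in 25 and 7, ATMG01270 (S7) in 8 and 0, and ATMG00210 (L5) in 4 and 3. Of these 20 rows, only ATMG01280 had a count in a well without a nucleus, and that was 1 count. At 3 counts, those wells could have hidden a level of up to 180 CPM per row.

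Detection in p1 went in part with the replicate number in the labels, whose meaning is not given in the sources used here. Among the 32 mitochondrial rows with at least 50 counts and over 50% of them in 1 p1 Smart-seq2 nucleus, a count was present in 9.36% of wells that shared the leading nucleus's block of 8 numbers or its remainder after division by 8, and in 3.62% of other wells. For the 21 such rows of p2 the shares were 2.98% and 3.01%. The corresponding shares were 18.6% and 6.79% over 7352 nuclear genes in p1, and 4.05% and 3.31% over 4833 nuclear genes in p2. With at least 5 counts as the minimum, the mitochondrial shares were 3.36% and 1.93% in p1, and 1.90% and 1.79% in p2. The higher p1 detection was therefore read again from 5 counts, where ATMG01190 was found in 43 p1 and 22 p2 Smart-seq2 nuclei, ATMG01320 in 34 and 17, and ATMG00560 in 26 and 9.

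Summed p1 over summed p2 Smart-seq2 nuclei, 40 of 99 mitochondrial rows lay beyond 4-fold, 21 higher and 19 lower in p1, against 31.1% of all genes, 11.8% higher and 19.3% lower. The median log2 ratio was 0.31 over the mitochondrial rows and -0.11 over all 20109 genes. Of 128 plastid rows, 0 were beyond 4-fold higher and 50 were lower, with a median log2 ratio of -1.50. Mitochondrial rows were thus called in both directions while plastid rows were called in 1. Scaled to total mitochondrial counts, 14 mitochondrial rows were higher and 25 lower.

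Among the abundant rows, ATMG01390 had a log2 ratio of 1.13 and ATMG00020 of 0.43, while ATMG00030 had -0.60. ATMG00660 was at 163 CPM in p1 and 29.8 CPM in p2 (log2 2.45, interval 2.36 to 2.54) and was found in 74 of 93 p1 and 17 of 93 p2 nuclei. ATMG00580 had a log2 ratio of 1.77 and ATMG01190 of 1.78. Both shared reads with nuclear genes, as given further on, and the ratios are of the mitochondrial rows alone. ATMG01190 held 78.93% of the counts of its pair with AT2G07698 in p1 and 41.96% in p2 Smart-seq2 nuclei. ATMG00580 held 36.82% in p1 and 28.59% in p2 of its pair with AT2G07717. The part that the division of reads plays in these 2 ratios was not tested.

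The extreme ratios belonged to rows with few nuclei, with ATMG00950 as an exception. ATMG00950 was found in 1 of 93 p1 and 36 of 93 p2 nuclei, with 2 and 213 counts and a log2 ratio of -8.51 (-11.57 to -6.64). Its p2 counts were spread, with 13.1% in the leading nucleus, and 1 of the wells without a nucleus held 1 count of it. ATMG00910, named unknown protein, was found in 12 p1 nuclei and 1 p2 nucleus (log2 7.08, interval 4.59 to 12.39), with 56% of its p1 counts in 1 nucleus. Without the leading nuclei its log2 ratio was at least 4.32, and that of ATMG00950 was -7.72 or lower. ATMG01180 and ATMG00300, both at 0 counts in p1, were at least 127-fold and at least 123-fold lower there, but their p2 counts came from 1 and 3 nuclei. ATMG00710 (log2 5.66, from 3 p1 nuclei and 1 count in p2) and ATMG01040 (at least 26.3-fold higher, from 1 p1 nucleus) were as narrow.

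Against the bulk wells, mitochondrial rows were called at about the share of all genes. In p1, 13 of 84 mitochondrial rows lay beyond 4-fold, 8 higher and 5 lower in summed nuclei, against 19.4% of all genes (11.1% higher and 8.33% lower). In p2, 12 of 70 did, 10 higher and 2 lower, against 15.5% of all genes (9.82% higher and 5.72% lower). These totals include 17 mitochondrial rows in p1 and 10 in p2 that had no ratio. The median log2 ratio was 0.40 over mitochondrial rows and 0.06 over all genes in p1, and 0.72 and 0.06 in p2. Scaled to total mitochondrial counts, 6 rows were higher and 7 lower in p1, and 4 higher and 4 lower in p2. ATMG01390 had log2 ratios of 0.51 in p1 and 0.71 in p2, and ATMG00020 of 0.17 and 1.00.

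ATMG00830 was at 56.6 CPM in summed p1 nuclei and 0 counts in the p1 bulk well, at least 36.7-fold higher in nuclei, and at 17.2 CPM in summed p2 nuclei and 0 counts in the p2 bulk well, at least 7.19-fold higher. It was found in 42 of 93 p1 and 18 of 93 p2 nuclei. ATMG00180 was likewise at 0 counts in both bulk wells, and was at least 13.6-fold higher in nuclei in p1 (log2 at least 3.12 without the leading nucleus, against 3.77 with it) and at least 7.08-fold higher in p2. ATMG00290 was at least 6.86-fold higher in p1 and at least 6.50-fold higher in p2. In p2, ATMG00500 was at least 8.07-fold higher, and ATMG01320 had 561 counts in nuclei and 2 in the bulk well (log2 3.17, interval 1.31 to 6.22). Some of these rows shared reads with nuclear copies, as given further on, and the copies did have bulk counts. AT2G07783, the partner of ATMG00830, had 790 in the p1 and 355 in the p2 bulk well. AT2G07734, the partner of ATMG00290, had 47 and 17, and AT2G07708, the partner of ATMG00500, had 224 in p2. AT2G07723, which fell short of a pair with ATMG00180, had 235 and 147. The part that the division of reads plays in these ratios was not tested.

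Rows lower in nuclei than in a bulk well rested on few counts. In p1 these were led by ATMG00510 (log2 -3.32, 15 counts in the bulk well), ATMG01260 (-2.51, 9 counts) and ATMG00690 (-2.30, 44 counts). In p2 they were ATMG00160 (-2.61, 12 counts) and ATMG01140 (-2.20, 13 counts), followed by ATMG00810 (-1.49, 11 counts) inside the 4-fold limit. Without the leading nucleus, which held 72.1%, 56.8% and 68% of the p2 nuclei's counts, these ratios were -4.43 for ATMG00160, -3.39 for ATMG01140 and -3.09 for ATMG00810. In p1, ATMG00510 was at -3.96 and ATMG01260 at -3.32 without theirs. ATMG00510 shared reads with AT2G07709, which held most of the pair's counts. In p1 nuclei ATMG00510 had 103 counts and AT2G07709 had 27554, and in the p1 bulk well they had 15 and 546. The part that the division of reads plays in this ratio was not tested. A bulk well is 1 library, so these differences have no replicate check.

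Smart-seq2 over Smart-seq3 gave mostly higher values in Smart-seq2, for mitochondrial rows as for other genes. In p1, 23 of 84 mitochondrial rows lay beyond 4-fold, 18 higher and 5 lower in Smart-seq2, against 49.3% of all genes (36.7% higher and 12.6% lower), and 31 rows had no ratio. In p2, 47 of 72 did, 40 higher and 7 lower, against 65.5% of all genes (56% higher and 9.5% lower). Median log2 ratios were 1.07 over mitochondrial rows and 1.33 over all genes in p1, and 2.40 and 2.59 in p2. The share of mitochondrial rows called in either direction was under that of all genes in p1 and close to it in p2, so these counts are no result about mitochondrial rows. Scaled to total mitochondrial counts, 4 rows were higher and 16 lower in p1, and 9 higher and 18 lower in p2. With DESeq2's median-of-ratios scaling the p1 split was 12 higher and 8 lower.

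Single rows did differ in size. ATMG01390, which shared reads with plastid rows, had a log2 ratio of 7.86 (7.49 to 8.26) in p1 and 5.83 (5.73 to 5.94) in p2. ATMG01360 had 5.67 in p1 and 10.95 in p2, where the p2 value stands against 1 Smart-seq3 count (8.48 to 16.26). ATMG00020 had 1.98 in p1 and 2.83 in p2 (-0.032 in p2 when scaled to total mitochondrial counts), and ATMG00030 had -0.23 and 1.29. ATMG01190 had 5.35 in p1 against 5 Smart-seq3 counts, and 2.34 in p2 (-0.53 when scaled to total mitochondrial counts). AT2G07698, with which ATMG01190 shared reads, had 32 Smart-seq3 counts in p1 and 216 in p2. The ratios are of ATMG01190 alone, and the part that the division of reads plays in them was not tested. All 76 p2 Smart-seq3 counts of ATMG01190 lay in 1 nucleus, and without the leading nuclei its log2 ratio was 6.40 in p1 and at least 6.58 in p2. ATMG01390 moved to 8.55 in p1, and ATMG01360 to at least 9.07 in p2, without theirs.

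In the other direction, ATMG01060 was the row with the widest Smart-seq3 support. It had 2, 0, 2, 0, 0, 24, 18 and 1 counts in the 8 p1 Smart-seq3 nuclei and 0, 10, 0, 0, 54, 1, 21, 24, 2, 30, 13 and 18 counts in the 12 p2 Smart-seq3 nuclei. It had 0 counts in the 93 p1 Smart-seq2 nuclei and 2 counts in the 93 p2 Smart-seq2 nuclei, which gave a log2 ratio of -9.21 (-12.27 to -7.33) in p2. This row shared reads with the plastid row ATCG00230, as given further on. ATMG01220 (-7.65) and ATMG00110 (-5.37) in p2, and ATMG00120 (-8.95) in p1, each had all of their Smart-seq3 counts, or all but 2, in 1 nucleus.

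Smart-seq3 counts of the rarer rows were close to all or none. Among the rows with at least 50 counts in a group, the leading nucleus held a median of 97.6% of a row's counts in p1 Smart-seq3 (10 rows) and 88.2% in p2 Smart-seq3 (19 rows), against 38.5% in p1 Smart-seq2 (84 rows) and 36.7% in p2 Smart-seq2 (70 rows). ATMG00090 had 338 of its 340 p1 counts in replicate 6, ATMG00660 had 146 of 148 in replicate 7, and ATMG00120 had 191 of 193 in replicate 4. In p2, replicate 5 held all 525 counts of ATMG00110 and all 225 counts of ATMG00160. Leaving out the nucleus with the most counts in each group moved the p1 log2 ratio of ATMG00090 to 5.61, against -1.02 with it, that of ATMG00660 to 5.74, against -0.04, and that of ATMG00080 to 5.22, against 0.07.

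Part of the counts on mitochondrial rows were fractions of reads divided between copies. Of 3336 values above 0, 1205 (36.1%) were not whole numbers, against 9.47% over all genes, and they carried 86.5% of mitochondrial counts. Of the 42 rows with such a value in at least 5 wells, 22 had 1 partner with which the sum was whole, within 0.0015, in most of those wells. The partner was a nuclear copy for 20 rows and a plastid row for 2 rows, and no second partner fitted in more than 4 wells. The margin was narrow for ATMG01280, which fitted AT2G07695 in 5 wells and ATMG00160 in 4. ATMG00490 and ATMG00500 had the same partner, AT2G07708. These pairs were chosen after their values were seen.

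ATMG00580 and AT2G07717 summed to a whole number in 119 of 121 wells. ATMG00580 had 68006 counts in p1 and 5797 in p2 Smart-seq2 nuclei, and AT2G07717, whose sequence matches nad4, had 116669 in p1 and 14480 in p2. ATMG01190 and AT2G07698 did so in 57 of 64 wells, with 30871 counts in p1 and 2626 in p2 on the mitochondrial row, and 8240 in p1 and 3633 in p2 on the nuclear gene. ATMG00500 and AT2G07708 did so in 49 of 53 wells, and ATMG00830 and AT2G07783, the pair printed above with 1 difference, in 43 of 45. In ATMG00830 the mitochondrial row had the smaller part, 7576 counts in p1 against 38210 on AT2G07783. ATMG01320 had the larger part, 5045 in p1 against 408 on AT2G07689.

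**Figure D4:**
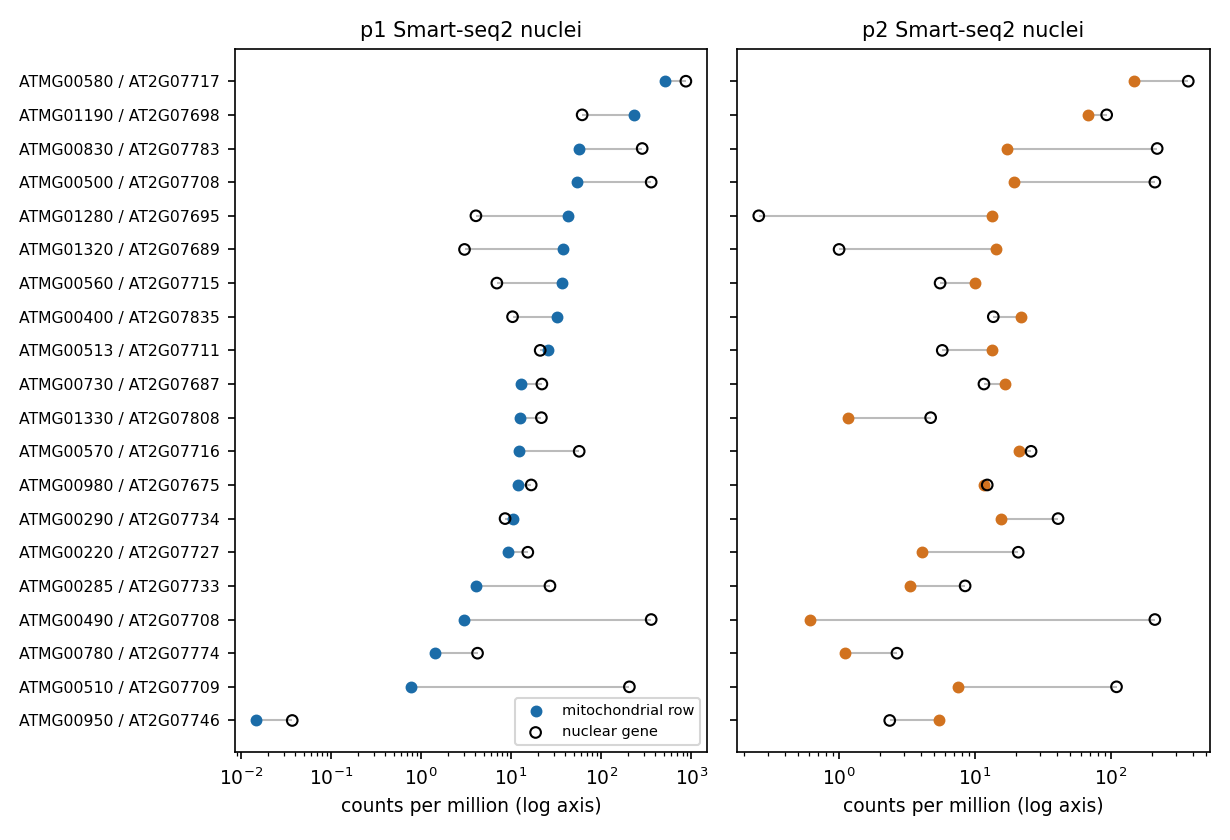
Level of each mitochondrial row (filled) and of the nuclear gene that shares its reads (open) in summed p1 and summed p2 Smart-seq2 nuclei, in CPM on log axes that differ between the panels. The nuclear gene is the higher of ATMG00580 and AT2G07717 in both panels, and ATMG01190 is above AT2G07698 in p1 and under it in p2.

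The counts of these pairs are uncertain by the size of the partner, and which genome a read came from was not tested. For ATMG00950 the partner was AT2G07746, identical over 72 bases, and 5 of 6 sums were whole. The plastid pairs were ATMG00280 with ATCG00490 in 9 of 13 wells and ATMG01060 with ATCG00230 in 7 of 10. The abundant rows were set against plastid rows. ATMG01390 was not whole in 172 wells, and its sum with ATCG00920 and ATCG01210 was whole, within 0.0025, in 145 of them. In p1 Smart-seq2 nuclei ATMG01390 had 2044381 counts beside 629829 on ATCG00920 and 1323481 on ATCG01210, and in p1 Smart-seq3 nuclei it had 58 beside 1603 and 2196. ATMG00020 was not whole in 174 wells, and its sum with ATCG00950 and ATCG01180 was whole in 43 of them, under the 50% asked of a pair, so its partners were not settled.

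The 116 nuclear copies together had 320516 counts in p1 and 63510 in p2 Smart-seq2 nuclei, 596 in p1 and 4498 in p2 Smart-seq3 nuclei, 5066 in the p1 and 1697 in the p2 bulk well, and 2 counts in the wells without a nucleus. Set against the 144 mitochondrial rows outside ATMG00020 and ATMG01390, this was a ratio of 0.816 in p1 and 0.723 in p2 Smart-seq2 nuclei, 0.339 in p1 and 0.700 in p2 Smart-seq3 nuclei, and 1.46 in the p1 and 0.772 in the p2 bulk well. Across deep Smart-seq2 nuclei the shares of counts on these copies and on the 144 rows had a Spearman rho of 0.72 in p1 (57 nuclei) and 0.84 in p2 (81 nuclei). Both shares use the same total, and their genes share reads.

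Nuclear genes for mitochondrial proteins were read beside the organelle's own. The 16 nuclear genes of the respiratory chain summed to 2065 CPM in p1 and 699 CPM in p2 Smart-seq2 nuclei, 719 CPM in p1 and 986 CPM in p2 Smart-seq3 nuclei, 1810 CPM in the p1 and 618 CPM in the p2 bulk well, and 2 counts in the wells without a nucleus. All 16 had a count in both Smart-seq2 groups, in a median of 55.4% of p1 and 19.9% of p2 nuclei. CI51, a complex I subunit, was found in 68 of 93 p1 and 13 of 93 p2 nuclei, ATP3, a subunit of the ATP synthase, in 67 and 27, and AOX1A, the alternative oxidase, in 1 and 7. The 6 genes for mitochondrial gene expression and genome upkeep summed to 311 CPM in p1 and 216 CPM in p2. MSH1, which limits recombination of the organelle genome, was found in 21 of 93 p1 and 4 of 93 p2 nuclei. Depth differs between p1 and p2, and its part in these shares was not tested.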

How the data were processed

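The deposited values are estimated counts for each feature in each well, which are not whole where a read was divided between features. The protocol and the p number of each well are as its label gives them. The submitters' processing notes name the build TAIR10 and DESeq2. The aligner, the counting tool and the annotation are not given in the sources used here, nor whether unique molecular identifiers were counted.

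Estimated counts were rounded to whole numbers, except where the sharing of reads was examined. Counts on genes leave out 31189 transposable elements and 1 reporter row. Shares of wells have exact Clopper-Pearson intervals at 95%, summed counts exact Poisson intervals and ratios intervals from the binomial distribution, and all cover counting error only. Ratios used summed counts relative to counts on genes, for genes with at least 50 counts, with 0 entered as 3 counts. They and the intervals were tested on simulated data. A well was deep from 50000 counts, and wells were thinned to 4200 counts. Nuclear copies were found with blastn 2.17.0 in RefSeq TAIR10.1. DESeq2 1.42.0 and edgeR 4.0.16 gave scaling factors for alternatives only. Python 3.11.15 and scipy 1.17.1 were used.

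The members and gene lists were chosen with earlier results of these data known. Named rows are the 10 with the highest mean share of mitochondrial counts over the Smart-seq2 groups, those with a role in the annotation, and the 3 highest and 3 lowest ratios of each comparison. Other rows were named after their values were seen. The planned ribosomal RNA rows could not be named, since the annotation gives none for these identifiers.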

Additional observations from a re-analysis of the deposited data

Results flagged for a closer look

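Replicate 5 of the 8 p1 Smart-seq3 nuclei stood apart from the others. Its mitochondrial share was 1.74% and its ATMG00020 share 1.70% of counts on genes, each farther above the nearest nucleus than Dixon's 95% limit allows, a limit that chance passes in about 1 in 20 groups. The limit was applied to the highest and lowest value of 10 measures, and the 2 measures that passed are nearly the same one. ATMG00020 alone made up 753 of its 770 mitochondrial counts.

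For 3 rows the ratio of Smart-seq2 to Smart-seq3 lay beyond 4-fold in opposite directions in p1 and p2, and this difference was not tested. ATMG00160 had a log2 ratio of 3.12 in p1 and -4.66 in p2, a difference of 7.78, and its 225 p2 Smart-seq3 counts came from 1 nucleus. ATMG00690 had -2.22 in p1 and 6.32 in p2, a difference of -8.54, on 19 counts in p1 and 3 counts in p2 Smart-seq3 nuclei. ATMG01380 had -2.45 in p1 and at least 57.1-fold higher in p2 (log2 5.84), a difference of -8.28, and its 65 p1 Smart-seq3 counts came from 1 nucleus.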

How the results depend on the processing

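No paired analysis was possible because each group is 1 sample, and no comparison between groups comes from a test. Replicate numbers name wells, their meaning is not given, and detection in p1 went in part with them. Of the values that answer a comparison, 133 kept their size under an alternative and 18 moved. For shares, rows per well and make-up, keeping size meant a change smaller than the standard deviation across the wells of a group. In p2 Smart-seq2 nuclei this deviation was larger than the median mitochondrial share, so no fall in that share could count as a move. The 133 kept values are therefore no measure of stability. With nuclear ribosomal RNA genes left out of the total, the mitochondrial share was 2.14% in the p1 and 1.00% in the p2 bulk well, and with all features in the total it was 22.6% in the wells without a nucleus. With wells thinned to 4200 counts, the median number of mitochondrial rows per well was 8 in p1 Smart-seq2 nuclei, 4 and 2.5 in Smart-seq3 nuclei of p1 and p2, 7 in the p1 and 6 in the p2 bulk well, and 2 in wells without a nucleus. Counted from 5 counts, it was 3.5 in p1 Smart-seq3 nuclei and 2 in wells without a nucleus. Leaving out each well without a nucleus in turn gave 3 and 3 rows beyond 4-fold. At a 2-fold limit, 32 rows (38.1%, against 44.6% of all genes) were called in p1 nuclei over bulk, 32 (45.7%, against 41.8%) in p2 nuclei over bulk, 62 (62.6%, against 56.1%) in p1 over p2 and 37 (44%, against 70.6%) in p1 Smart-seq2 over Smart-seq3. Scaling to total mitochondrial counts gave 27 rows in p2 Smart-seq2 over Smart-seq3. Of the values of single rows, 353 kept their size, which means they stayed inside the main interval from counting error, 225 moved and 6 turned round. Of the 353, 83 came from lowering the minimum to 1 count, which cannot change a ratio. Turning round was counted only for rows beyond 4-fold, so changes of sign in smaller ratios are counted as moved or kept. Under mitochondrial scaling, ATMG01390 was 0.046 and ATMG00950 0.76 over wells without a nucleus, ATMG00580 was -0.051 in p1 Smart-seq2 over Smart-seq3, and ATMG00020 was -0.032 and ATMG01190 -0.53 in p2. ATMG00510 was 1.99 in p1 Smart-seq2 over Smart-seq3 with equal weight per nucleus. That scaling moved the median log2 ratio of all genes to 1.62 over wells without a nucleus, -0.36 over the p1 and -0.74 over the p2 bulk well, -0.88 in p1 over p2, and -1.35 in p1 and 0.11 in p2 Smart-seq2 over Smart-seq3. TMM moved it to 0.49 over wells without a nucleus, 0.21 and 0.24 over the bulk wells, 0.01 in p1 over p2, and 1.12 and 2.45 over Smart-seq3, and median-of-ratios scaling to 0.47, 0.18, 0.20, -0.01, 0.73 and 2.07. The cause of the other moves was not tested. The alternative that leaves out mitochondrial ribosomal RNA rows was not run, because the annotation names none. Leaving out the nucleus with the most counts of a row was chosen after seeing the data. Depth limits the wells without a nucleus most: 3 counts there stand for 180 CPM.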
